A study of Rattus norvegicus with 10 samples.

Results

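The genes described here encode the machinery that moves newly made proteins out of the endoplasmic reticulum (ER) and on to the Golgi apparatus. The set held 44 genes, chosen by name for their function but with earlier results of these data known, so counts over it are descriptions. Its 5 subgroups held 12 genes for the COPII coat and its regulators, 8 SNAREs and 12 cargo receptors. The rest were 7 for the COPI coat, and 5 tethers and small GTPases with their regulators. A probe matched by its transcript to 41 of the 44 genes, with 47 probes in all, among 10019 genes that were named and tested on the arrays. No probe was matched to Sec24d, Sec16a or Cope. Sec24c, Sec31a, Tmed2 and Copz1 had 2 probes each, and Tmed7 had 3. The brightest tested probe stood for each gene, and all 41 genes were tested in both comparisons.

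COPII vesicles carry secretory cargo out of the ER. The small GTPase Sar1, switched on by Preb, draws the inner coat of Sec23 and Sec24 to the membrane, Sec24 picks the cargo, and Sec13 with Sec31 forms the outer cage. COPI vesicles travel the other way and return escaped ER proteins, which receptors such as the KDEL receptors recognise in the Golgi. SNAREs fuse the vesicles with their target, and tethers hold them there first. Thyroid follicular cells export large amounts of thyroglobulin, the hormone precursor, along this route.

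RNA came from PCCl3 cells, a continuous rat thyroid follicular line, all grown with donor calf serum and a hormone mixture that included TSH. Cells called siFoxE1 had received 25 nM of an siRNA pool that targets FoxE1, cells called siScramble 25 nM of a control siRNA without a target, and wild-type (wt) cells no siRNA. FoxE1 is a forkhead transcription factor of the thyroid. On 10 Agilent arrays with 2 dyes, 4 arrays compared siFoxE1 with siScramble and 4 compared siFoxE1 with wt, 1 culture of each condition per array and siFoxE1 in Cy5, and 1 further array per comparison held pooled RNA of the same cultures with the dyes exchanged. Cultures came from 1 cell line, both comparisons used the same siFoxE1 extracts, and siScramble and wt were never on 1 array, so n is 4 cultures throughout. Because wt cells received no siRNA, silencing and transfection cannot be told apart against wt. Spots well above background made up 60.6 to 68.2% in Cy3 and 56.8 to 60.3% in Cy5, and precision is limited by how few arrays there are. Replicate 3 and the pool against siScramble had a scan date of their own, and the other 8 arrays shared another. These groups are called the second and the first scan below, and the slides themselves were not identified. A log2 ratio below is the value of 1 array, siFoxE1 over reference, and a log2 fold change is the limma estimate over the 5 arrays of a comparison with its standard error. With a dye term in that fit, the pool weighs as much as the mean of the 4 individual arrays. The word called stands for a Benjamini-Hochberg adjusted p under 0.05 over all probes tested.

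Foxe1, the silencing target, fell in both comparisons. Its log2 ratios against siScramble were -0.77, -0.46, -0.62 and -0.39 in replicates 1 to 4 and -1.03 on the pool, below 0 on all 5 arrays. The log2 fold change was -0.79 ± 0.09 against siScramble and -0.86 ± 0.08 against wt (adjusted p = 0.0225 and 0.0326 in limma). Of the thyroid follicular markers, 7 of 7 were above background. Markers of other cells were above background for 3 of 5 fibroblast, 3 of 4 macrophage, 2 of 3 endothelial and 0 of 2 C cell genes, and Dcn, Col3a1, Ptprc and Pecam1 were not. Among those measured, Cd68, a lysosomal protein, fell against siScramble in the fit per comparison (log2 fold change -0.66, adjusted p = 0.0147 in limma). It had -0.09 against wt (adjusted p = 0.537). In the limma fit with a block described below, Cd68 was not called against siScramble. There the lowest adjusted p of the macrophage markers was 0.286. The other measured marker genes outside the thyroid list lay between -0.08 and 0.14. Their part in the values below was not tested. In bulk RNA, fewer cells of a type and less RNA per cell cannot be told apart.

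ER to Golgi transport genes were mostly lower in siFoxE1 cells in both comparisons, by small amounts. Of 41 genes, 37 had a log2 fold change below 0 against siScramble and 37 against wt, where 49.6% and 50.6% of all genes did. The median was -0.27 against siScramble, from -0.65 for Mcfd2 to 0.16 for Tmed3, and -0.42 against wt, from -0.995 for Sec23b to 0.09 for Tmed3. Over all genes the median was 0.0011 and -0.0019. The genes lowest on the mean of both comparisons, Sec23b, Mcfd2, Uso1 and Bet1, stood for a coat subunit, a cargo adaptor, a tether and a SNARE.

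None of the 41 genes was called by limma in either comparison, where 0.154% of all genes were called against siScramble and 0.0304% against wt. At an unadjusted p under 0.05, 20 of the 41 were lower and 0 higher against siScramble, beside 7.5% of all genes lower and 8.67% higher. Against wt the count was 23 lower and 0 higher, beside 10.2% of all genes lower and 10.6% higher. These counts depended on the settings. Without replicate 4 the count against wt was 10, beside 5.17% of all genes. With the scanner software's processed signals it was 10 against siScramble, beside 5.88%, and 13 against wt, beside 7.9%. On the first scan alone, a fit of replicates 1, 2 and 4 without pool or dye term, it was 13 against siScramble, beside 9.25%. The median fold change against siScramble was -0.16 on the first scan alone and -0.24 with scan as a term. On the second scan the median ratios were -0.38 for replicate 3 and -0.28 for the pool. The fit on the first scan alone lacks the pool, the dye term and replicate 3 together, so the part of the scan itself was not tested.

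Because arrays with the same number hold the same siFoxE1 extract, the number was also used as a block in 1 fit of all 10 arrays. That fit gave each gene 1 residual spread for both comparisons, and its p against wt depends on it. In replicate 3 the SD of all genes was 0.33 against siScramble and 0.49 against wt. The pools counted as a block of their own, though they hold RNA of the same 4 cultures. Over all genes the fit called 484 lower and 576 higher against wt, where the fit per comparison called 3. In that fit 18 of 41 genes were lower against wt with an adjusted p under 0.05, beside 4.9% of all genes, and 0 were higher, beside 5.83%. These 18 genes were 5 of the COPII coat, 5 SNAREs, 3 cargo receptors, 4 of the COPI coat and 1 tether. Without the block the same 10 arrays gave 10 of 41, beside 5.44%. Against siScramble the fit with the block called 0 of 41, beside 0.165% of all genes lower, and 18 were lower at an unadjusted p under 0.05, beside 7.77%. The adjusted p with the block is given with each gene called against wt. The number called against wt thus differed with the fit, while the median differed little, at -0.43 with the block.

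**Figure D1:**
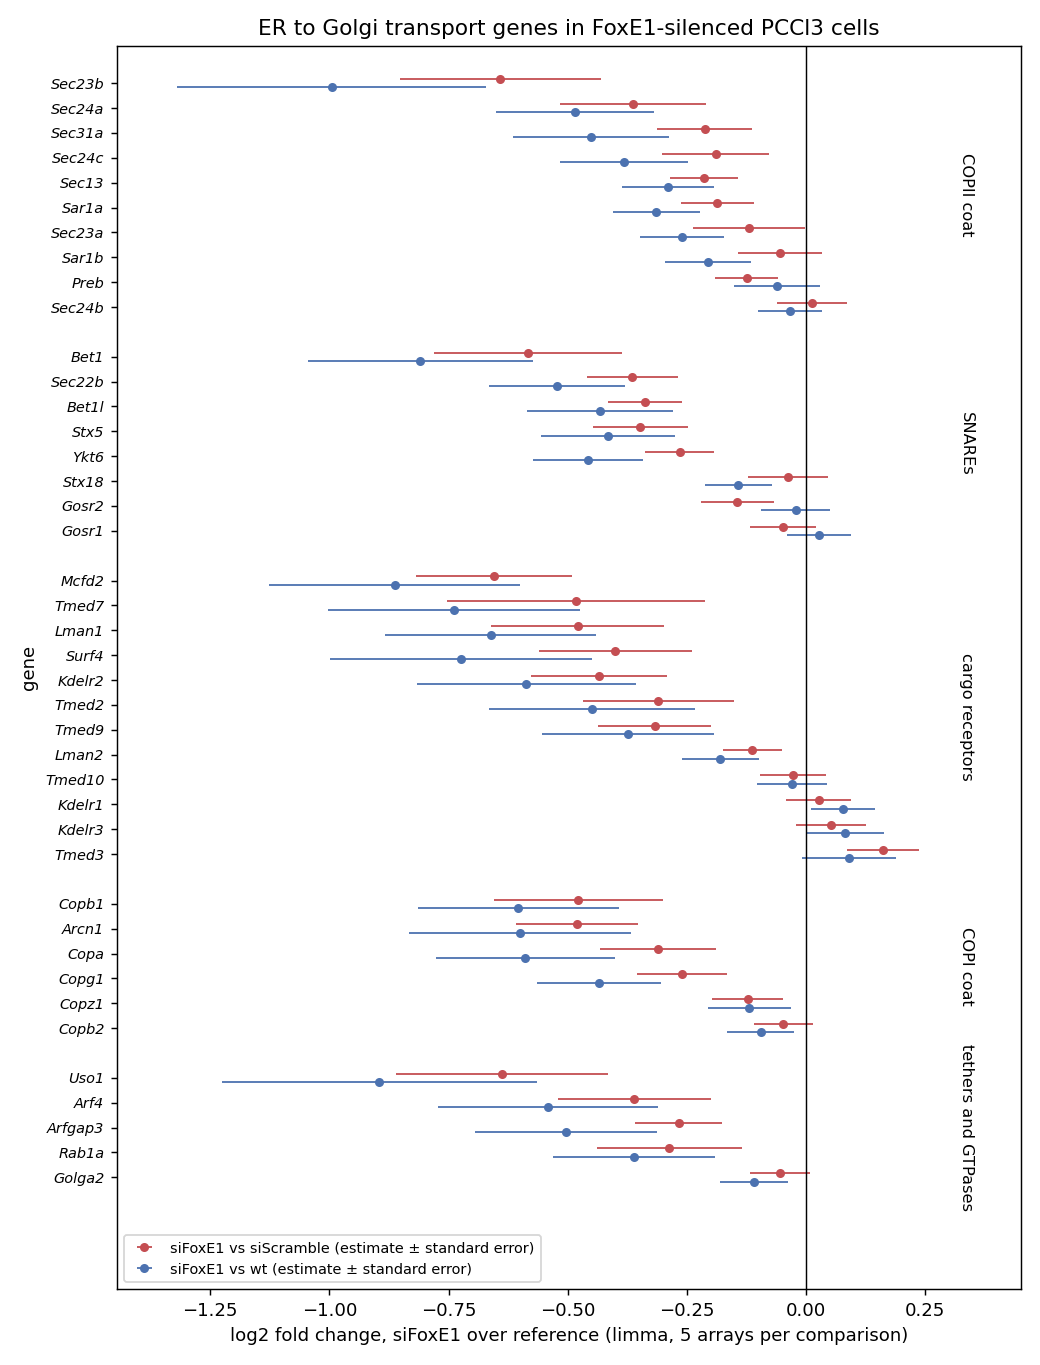
Log2 fold change of 41 genes, siFoxE1 over reference, on the x axis, with points for the limma estimate and bars for its standard error (5 arrays per comparison, n = 4 cultures). Genes are grouped by subgroup and ordered by the mean of both comparisons, and 37 of 41 lie below 0 in each comparison.

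Promoter sequences were searched because most of these genes lay on the same side of 0. RefSeq promoters of build GRCr8, 250 bases before and 50 after each gene's start, were held for 39 of 44 genes. The ER stress element, spelled CCAAT, 9 bases, CCACG, is the site through which ATF6 acts at chaperone genes. On either strand it was found in 0 of 39 promoters, beside 0.0657% of all promoters and 6 of 17 in the ER stress list. Its core CCACG alone was found in 30 of 39, or 76.9%, beside 31.6% of all promoters, 46.0% of those of genes tested on the arrays, and 41 of 68 in the list of other genes of the route. The core also lies inside the full element. Among 20 members with both log2 fold changes under -0.25, a limit set after the values were seen, 17 held it, and among the 17 other measured members 13 did. The study paired TTGG with a FoxE1 core 5 to 30 bases further and spelled that core in 2 ways. With ACAAA the pair was found in 0 of 39 promoters, beside 6.63% of all promoters and 4.54% of those of genes tested on the arrays. With AAACA, the spelling of its listed sites, it was found in 1 of 39, Copz1, beside 7.38% and 4.82%. The study searched longer stretches around the starts than these windows, so sites further away were not analysed here. Sec24a and Sar1b lie head to head, and their promoter windows share 161 bases. A match is a description of letters, and its absence holds for these windows only.

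Stretches of 80 bases from the promoter, in the direction of the gene, are printed for the lowest member of each subgroup, to show the core. Hspa5, the ER chaperone BiP, is given as an example of the full element. The stretches do not all end at the gene's start. Counted from the start, they run from -80 to -1 for Sec23b and Copb1, and from -99 to -20 for Bet1. For Mcfd2 they run from -174 to -95, for Uso1 from -161 to -82 and for Hspa5 from -89 to -10. Capitals mark CCACG or its reverse complement, and in Hspa5 also CCAAT. Sec23b has no match before its start.
Hspa5 (chr3:38452927-38453006, plus strand): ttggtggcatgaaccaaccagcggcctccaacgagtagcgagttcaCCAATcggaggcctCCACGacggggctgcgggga
Sec23b (chr3:152392603-152392682, plus strand): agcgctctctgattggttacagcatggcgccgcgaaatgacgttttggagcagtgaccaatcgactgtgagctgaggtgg
Bet1 (chr4:33081182-33081261, minus strand): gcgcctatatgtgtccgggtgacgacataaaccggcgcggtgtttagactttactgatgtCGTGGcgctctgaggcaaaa
Mcfd2 (chr6:13027876-13027955, plus strand): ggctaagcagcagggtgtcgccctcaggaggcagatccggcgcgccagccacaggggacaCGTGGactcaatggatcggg
Copb1 (chr1:177872841-177872920, minus strand): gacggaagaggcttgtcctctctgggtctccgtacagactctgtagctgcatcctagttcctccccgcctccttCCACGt
Uso1 (chr14:16216471-16216550, minus strand): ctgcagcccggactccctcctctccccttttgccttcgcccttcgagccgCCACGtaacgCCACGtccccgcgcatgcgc

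In Hspa5 CCAAT and CCACG stand 9 bases apart. The printed stretch of Uso1 holds 2 copies of the core, and that of Copb1 holds 1 near its end. Bet1 and Mcfd2 hold it on the opposite strand. None of these 4 members has CCAAT at the distance of the full element.

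Within the COPII coat, Sec23b was the lowest of 10 measured genes and Sec24b lay at 0. The 10 genes had a median log2 fold change of -0.19 against siScramble and -0.30 against wt. Sec23b log2 ratios were -0.47, 0.01, -1.26 and -1.06 in replicates 1 to 4 and -0.59 on the pool against siScramble, and -0.74, 0.10, -1.86 and -1.35 in replicates 1 to 4 and -1.03 on the pool against wt. Replicates 1, 3 and 4 and both pools were clearly below 0, and replicate 2 was at 0 or above. Sec23b encodes the inner coat subunit that drives GTP hydrolysis by Sar1. Its log2 fold change was -0.64 ± 0.21 against siScramble and -0.995 ± 0.32 against wt, 1.56-fold and 1.99-fold lower (adjusted p = 0.285 and 0.243 in limma; with the block, adjusted p = 0.0306 against wt). Its probe was named through the study's own annotation, because the transcript is not in the RefSeq table used.

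The cargo-binding Sec24 subunits covered a range of values. Sec24a log2 ratios were -0.06, 0.06, -0.78 and -0.58 in replicates 1 to 4 and -0.39 on the pool against siScramble, and -0.18, 0.10, -0.84 and -0.52 in replicates 1 to 4 and -0.61 on the pool against wt. Sec24c log2 ratios were -0.21, -0.04, -0.56 and -0.57 in replicates 1 to 4 and -0.04 on the pool against siScramble, and -0.40, -0.15, -0.85 and -0.69 in replicates 1 to 4 and -0.24 on the pool against wt. Sec24b log2 ratios were -0.19, 0.06, -0.12 and -0.05 in replicates 1 to 4 and 0.10 on the pool against siScramble, and -0.19, -0.15, -0.07 and -0.19 in replicates 1 to 4 and 0.08 on the pool against wt. Sec24a and Sec24c followed the same arrays as Sec23b, lowest in replicates 3 and 4 among the individual arrays, whereas Sec24b stayed within 0.2 of 0 on every array. The log2 fold change was -0.36 ± 0.15 against siScramble and -0.49 ± 0.17 against wt for Sec24a (adjusted p = 0.371 and 0.247 in limma). For Sec24c it was -0.19 ± 0.11 against siScramble and -0.38 ± 0.13 against wt (with the block, adjusted p = 0.046 against wt), and its second probe gave -0.28 and -0.35. Sec24b had 0.01 ± 0.07 against siScramble and -0.03 ± 0.07 against wt (adjusted p = 0.974 and 0.825 in limma).

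Log2 fold changes for the outer cage and the GTPase were smaller than those of Sec23b and Sec24a. Sec13 log2 ratios were -0.15, -0.01, -0.24 and -0.18 in replicates 1 to 4 and -0.28 on the pool against siScramble, and -0.43, -0.02, -0.41 and -0.37 in replicates 1 to 4 and -0.27 on the pool against wt. Sec31a log2 ratios were -0.07, 0.19, -0.23 and -0.31 in replicates 1 to 4 and -0.32 on the pool against siScramble, and -0.27, 0.22, -0.74 and -0.45 in replicates 1 to 4 and -0.59 on the pool against wt. Sar1a log2 ratios were -0.10, 0.08, -0.18 and -0.20 in replicates 1 to 4 and -0.27 on the pool against siScramble, and -0.15, 0.08, -0.33 and -0.24 in replicates 1 to 4 and -0.47 on the pool against wt. Replicate 2 was at or above 0 for Sec31a and Sar1a in both comparisons. Sec13, which is also a nucleoporin, had a log2 fold change of -0.21 ± 0.07 against siScramble and -0.29 ± 0.10 against wt (with the block, adjusted p = 0.0332 against wt). Sec31a, its partner in the cage, had -0.21 ± 0.10 against siScramble and -0.45 ± 0.16 against wt (adjusted p = 0.047 against wt with the block), but its second, dimmer probe gave -0.24 and -0.08, so the value against wt differed between probes. Sar1a had -0.19 ± 0.08 against siScramble and -0.31 ± 0.09 against wt (adjusted p = 0.0343 against wt with the block). The remaining 3 measured genes were Sec23a with -0.12 and -0.26, Sar1b with -0.06 and -0.21, and Preb with -0.12 and -0.06. The Sec23a probe was dim, with a mean log2 intensity of 6.83, where the background step pulls ratios towards 0.

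Among the 8 SNAREs, Bet1, Sec22b, Ykt6, Stx5 and Bet1l were the lowest and Gosr1, Gosr2 and Stx18 lay near 0, with a median log2 fold change of -0.30 against siScramble and -0.42 against wt. Bet1 log2 ratios were -0.27, -0.14, -1.12 and -1.14 in replicates 1 to 4 and -0.50 on the pool against siScramble, and -0.50, -0.13, -1.45 and -1.17 in replicates 1 to 4 and -0.81 on the pool against wt. Every one of the 10 arrays was below 0, and replicates 3 and 4 were the lowest in both comparisons. Bet1 encodes a SNARE of ER-derived vesicles. Its log2 fold change was -0.58 ± 0.20 against siScramble and -0.81 ± 0.24 against wt, 1.50-fold and 1.75-fold lower (adjusted p = 0.292 and 0.236 in limma; with the block, adjusted p = 0.029 against wt).

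Sec22b log2 ratios were -0.10, -0.06, -0.43 and -0.45 in replicates 1 to 4 and -0.47 on the pool against siScramble, and -0.32, 0.04, -0.70 and -0.65 in replicates 1 to 4 and -0.64 on the pool against wt. Ykt6 log2 ratios were -0.17, -0.03, -0.25 and -0.24 in replicates 1 to 4 and -0.36 on the pool against siScramble, and -0.34, 0.04, -0.54 and -0.45 in replicates 1 to 4 and -0.60 on the pool against wt. Both were about as low on the pools as on replicates 3 and 4. Sec22b, a vesicle SNARE that pairs with Bet1, had a log2 fold change of -0.36 ± 0.10 against siScramble and -0.52 ± 0.14 against wt (adjusted p = 0.224 and 0.233 in limma; with the block, adjusted p = 0.0188 against wt). Ykt6, a lipid-anchored SNARE, had -0.27 ± 0.07 against siScramble and -0.46 ± 0.12 against wt and the lowest p of the set with the block (adjusted p = 0.0165 against wt).

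Stx5 log2 ratios were -0.24, -0.04, -0.47 and -0.52 in replicates 1 to 4 and -0.37 on the pool against siScramble, and -0.18, -0.15, -0.81 and -0.66 in replicates 1 to 4 and -0.38 on the pool against wt. Bet1l log2 ratios were -0.14, -0.13, -0.38 and -0.34 in replicates 1 to 4 and -0.43 on the pool against siScramble, and -0.20, -0.05, -0.85 and -0.60 in replicates 1 to 4 and -0.44 on the pool against wt. These genes encode Golgi SNAREs, and both were below 0 on all 10 arrays. Stx5, the syntaxin that receives ER-derived vesicles, had a log2 fold change of -0.35 ± 0.10 against siScramble and -0.42 ± 0.14 against wt (adjusted p = 0.0333 against wt with the block). Bet1l had -0.34 ± 0.08 against siScramble and -0.43 ± 0.15 against wt (adjusted p = 0.034 against wt with the block). Gosr1 log2 ratios were -0.09, -0.08, -0.08 and 0.10 in replicates 1 to 4 and -0.06 on the pool against siScramble, and -0.07, 0.03, 0.03 and 0.07 in replicates 1 to 4 and 0.04 on the pool against wt. Gosr1, a Golgi SNARE, showed no shared direction, with -0.05 ± 0.07 against siScramble and 0.03 ± 0.07 against wt (adjusted p = 0.839 and 0.854 in limma), and its probe was dim, with a mean log2 intensity of 6.24. In each comparison it was well above background on 1 of 5 arrays in the siFoxE1 channel and on 4 in the reference channel. With the scanner software's processed signals Gosr1 had -0.38 against siScramble. Gosr2 had -0.14 and -0.02, and Stx18, a SNARE of the ER, had -0.04 and -0.14.

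**Figure D2:**
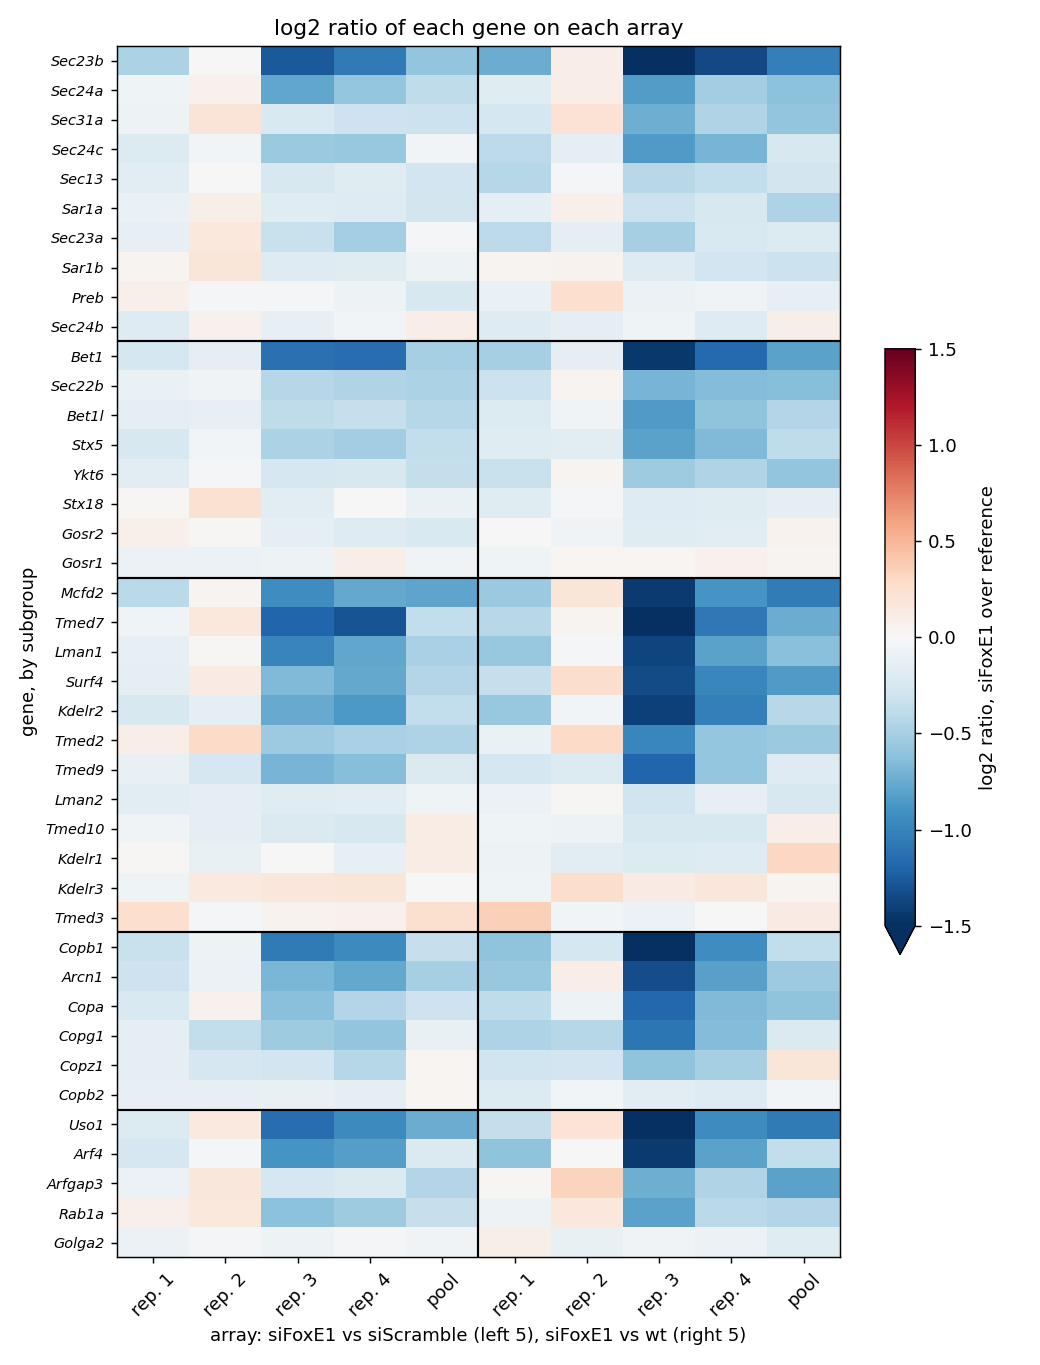
Colour gives the log2 ratio of siFoxE1 over reference for 41 genes (rows, by subgroup) on 10 arrays (columns, siFoxE1 vs siScramble on the left and vs wt on the right), with values under -1.5 shown at the end of the scale. The darkest columns are replicates 3 and 4 of both comparisons, and replicate 2 is near white.

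Of the cargo receptors, 9 of 12 were below 0 in each comparison, with a median log2 fold change of -0.31 against siScramble and -0.41 against wt. Mcfd2 log2 ratios were -0.41, 0.05, -0.94 and -0.77 in replicates 1 to 4 and -0.79 on the pool against siScramble, and -0.55, 0.18, -1.43 and -0.89 in replicates 1 to 4 and -1.05 on the pool against wt. Lman1 log2 ratios were -0.13, 0.01, -0.99 and -0.78 in replicates 1 to 4 and -0.49 on the pool against siScramble, and -0.56, -0.02, -1.38 and -0.81 in replicates 1 to 4 and -0.63 on the pool against wt. Mcfd2 and Lman1 (ERGIC-53) form the receptor that carries blood clotting factors and other glycoproteins out of the ER, and both were lowest in replicate 3. Mcfd2 had a log2 fold change of -0.65 ± 0.16 against siScramble and -0.86 ± 0.26 against wt, 1.57-fold and 1.82-fold lower (adjusted p = 0.219 and 0.239 in limma; with the block, adjusted p = 0.0237 against wt). Lman1 had -0.48 ± 0.18 against siScramble and -0.66 ± 0.22 against wt (adjusted p = 0.321 and 0.245 in limma; with the block, adjusted p = 0.0384 against wt). The related lectin Lman2 had -0.11 and -0.18.

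p24 proteins, which sort cargo at both coats, covered a range from the lower genes to the highest of the set. Tmed7 log2 ratios were -0.05, 0.16, -1.19 and -1.30 in replicates 1 to 4 and -0.37 on the pool against siScramble, and -0.42, 0.05, -1.49 and -1.07 in replicates 1 to 4 and -0.74 on the pool against wt. Tmed3 log2 ratios were 0.25, -0.03, 0.05 and 0.07 in replicates 1 to 4 and 0.24 on the pool against siScramble, and 0.35, -0.04, -0.08 and 0.01 in replicates 1 to 4 and 0.12 on the pool against wt. Tmed7 was below -1 on replicates 3 and 4 of both comparisons and within 0.2 of 0 on replicate 2, while Tmed3 was highest in replicate 1. Tmed7 had a log2 fold change of -0.48 ± 0.27 against siScramble and -0.74 ± 0.27 against wt (adjusted p = 0.499 and 0.255 in limma), and its other probes gave -0.53 and -0.58, and -0.40 and -0.48. Tmed2 had -0.31 and -0.45, with -0.35 and -0.43 from its second probe, and Tmed9 had -0.32 and -0.37. Tmed10 had -0.03 and -0.03. Its pools gave 0.11 and 0.10, while every individual array was below 0, with means of -0.16 and -0.15. Tmed3 had 0.16 ± 0.08 against siScramble and 0.09 ± 0.10 against wt (adjusted p = 0.413 and 0.659 in limma), the highest of all 41 genes.

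Of the KDEL receptors, which retrieve ER chaperones from the Golgi, Kdelr2 was the low one. Kdelr2 log2 ratios were -0.24, -0.13, -0.76 and -0.87 in replicates 1 to 4 and -0.37 on the pool against siScramble, and -0.57, -0.04, -1.40 and -1.02 in replicates 1 to 4 and -0.41 on the pool against wt. All 10 arrays were below 0. Its log2 fold change was -0.43 ± 0.14 against siScramble and -0.59 ± 0.23 against wt (adjusted p = 0.285 and 0.275 in limma; with the block, adjusted p = 0.0479 against wt). Kdelr1 had 0.03 and 0.08. Its sign depended on the pools, which gave 0.11 and 0.31, while the mean of its individual arrays was -0.05 and -0.16. The same held for Sec24b and Stx18 against siScramble and for Preb against wt, whose values lay within 0.1 of 0. Kdelr3 had 0.05 and 0.08. Surf4, a receptor for soluble cargo, had -0.40 ± 0.16 against siScramble and -0.72 ± 0.28 against wt (adjusted p = 0.349 and 0.27 in limma; with the block, adjusted p = 0.0515 against wt).

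In the COPI coat all 6 measured genes were below 0, with a median log2 fold change of -0.29 against siScramble and -0.51 against wt. Copb1 log2 ratios were -0.33, -0.08, -1.06 and -0.95 in replicates 1 to 4 and -0.35 on the pool against siScramble, and -0.61, -0.26, -1.52 and -0.93 in replicates 1 to 4 and -0.37 on the pool against wt. Arcn1 log2 ratios were -0.31, -0.09, -0.69 and -0.77 in replicates 1 to 4 and -0.50 on the pool against siScramble, and -0.57, 0.10, -1.33 and -0.81 in replicates 1 to 4 and -0.55 on the pool against wt. Copa log2 ratios were -0.22, 0.07, -0.63 and -0.44 in replicates 1 to 4 and -0.31 on the pool against siScramble, and -0.38, -0.08, -1.18 and -0.66 in replicates 1 to 4 and -0.60 on the pool against wt. Replicate 3 against wt was the lowest array for all of these subunits, and replicate 2 lay between -0.27 and 0.11. Log2 fold changes were -0.48 ± 0.18 against siScramble and -0.60 ± 0.21 against wt for Copb1 (adjusted p = 0.311 and 0.251 in limma; with the block, adjusted p = 0.042 against wt). For Arcn1 they were -0.48 ± 0.13 against siScramble and -0.60 ± 0.23 against wt (adjusted p = 0.224 and 0.273 in limma; with the block, adjusted p = 0.0477 against wt). Copa had -0.31 ± 0.12 against siScramble and -0.59 ± 0.19 against wt (adjusted p = 0.338 and 0.24 in limma; with the block, adjusted p = 0.0278 against wt).

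Copg1 log2 ratios were -0.14, -0.37, -0.54 and -0.59 in replicates 1 to 4 and -0.11 on the pool against siScramble, and -0.47, -0.42, -1.08 and -0.65 in replicates 1 to 4 and -0.21 on the pool against wt. Copb2 log2 ratios were -0.12, -0.12, -0.12 and -0.14 in replicates 1 to 4 and 0.03 on the pool against siScramble, and -0.21, -0.04, -0.16 and -0.19 in replicates 1 to 4 and -0.04 on the pool against wt. Copg1 was below 0 on all 10 arrays, while Copb2 stayed within 0.22 of 0. Copg1 had a log2 fold change of -0.26 ± 0.09 against siScramble and -0.43 ± 0.13 against wt (adjusted p = 0.0306 against wt with the block) and Copb2 -0.05 ± 0.06 against siScramble and -0.10 ± 0.07 against wt (adjusted p = 0.814 and 0.499 in limma). The probes of Copz1 differed mainly on the pools. Its brighter probe gave -0.12 and -0.12 and its dimmer one -0.27 and -0.42. On the pools the brighter probe had 0.03 and 0.18, and the dimmer one -0.22 and -0.28. The means of the individual arrays lay closer, at -0.28 and -0.42 for the brighter and -0.33 and -0.56 for the dimmer.

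Tethers and GTPases were below 0 for all 5 genes, with a median log2 fold change of -0.29 against siScramble and -0.50 against wt. Uso1 log2 ratios were -0.20, 0.15, -1.14 and -0.95 in replicates 1 to 4 and -0.74 on the pool against siScramble, and -0.36, 0.20, -1.81 and -0.94 in replicates 1 to 4 and -1.06 on the pool against wt. The ratio against wt spanned from above 0 in replicate 2 to its lowest in replicate 3. Uso1 (p115) is the tether that captures ER-derived vesicles at the Golgi. It had a log2 fold change of -0.64 ± 0.22 against siScramble and -0.90 ± 0.33 against wt, 1.56-fold and 1.86-fold lower (adjusted p = 0.299 and 0.261 in limma; with the block, adjusted p = 0.047 against wt). Golga2 (GM130), the Golgi protein that binds Uso1, had -0.05 ± 0.06 against siScramble and -0.11 ± 0.07 against wt (adjusted p = 0.783 and 0.453 in limma). Golga2 log2 ratios were -0.09, -0.03, -0.07 and -0.02 in replicates 1 to 4 and -0.05 on the pool against siScramble, and 0.09, -0.11, -0.06 and -0.09 in replicates 1 to 4 and -0.18 on the pool against wt.

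Arf4 log2 ratios were -0.25, -0.03, -0.88 and -0.83 in replicates 1 to 4 and -0.22 on the pool against siScramble, and -0.61, -0.0025, -1.43 and -0.81 in replicates 1 to 4 and -0.37 on the pool against wt. Arfgap3 log2 ratios were -0.09, 0.17, -0.25 and -0.22 in replicates 1 to 4 and -0.44 on the pool against siScramble, and 0.02, 0.34, -0.74 and -0.45 in replicates 1 to 4 and -0.80 on the pool against wt. Arf4 was below 0 on all 10 arrays, and Arfgap3 was above 0 in replicate 2 of both comparisons. Arf4, a GTPase of COPI coating, had -0.36 ± 0.16 against siScramble and -0.54 ± 0.23 against wt (adjusted p = 0.397 and 0.298 in limma). Arfgap3, which switches Arf GTPases off at the Golgi, had -0.27 ± 0.09 against siScramble and -0.50 ± 0.19 against wt (adjusted p = 0.294 and 0.269 in limma). Rab1a, the GTPase that recruits Uso1, had -0.29 and -0.36.

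Related genes were set side by side by subtracting their log2 ratios culture by culture, over 9 pairs and 2 comparisons, 18 tests in all. Sec23b minus Sec23a was -0.49 ± 0.33 (SD, n = 4) against siScramble, negative in 4 of 4 cultures, and -0.65 ± 0.73 (SD, n = 4) against wt, negative in 3. The Sec23a probe was dim, where the background step pulls ratios towards 0, and the part of this in the difference was not tested. Kdelr2 minus Kdelr3 was -0.61 ± 0.44 (SD, n = 4) and -0.88 ± 0.57 (SD, n = 4), negative in 4 of 4 cultures in both comparisons. Bet1 minus Bet1l was -0.42 ± 0.41 (SD, n = 4) and -0.39 ± 0.24 (SD, n = 4), again negative in all 4 cultures. Sec24c minus Sec24b was -0.27 ± 0.25 (SD, n = 4) and -0.37 ± 0.34 (SD, n = 4). Sar1a minus Sar1b was -0.06 ± 0.07 (SD, n = 4) and -0.07 ± 0.11 (SD, n = 4). Sec24a minus Sec24c was 0.01 ± 0.16 (SD, n = 4) and 0.16 ± 0.11 (SD, n = 4), positive in all 4 cultures against wt. The pools did not always match these means. Against siScramble and wt they gave -0.20 and -0.15 for Sar1a minus Sar1b, -0.07 and -0.37 for Bet1 minus Bet1l, and -0.35 and -0.37 for Sec24a minus Sec24c. With 4 cultures the 2-sided exact permutation test over culture signs cannot give p below 0.125, and the lowest adjusted value over the 18 tests was 0.225, so no pair was shown to differ.

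**Figure D3:**
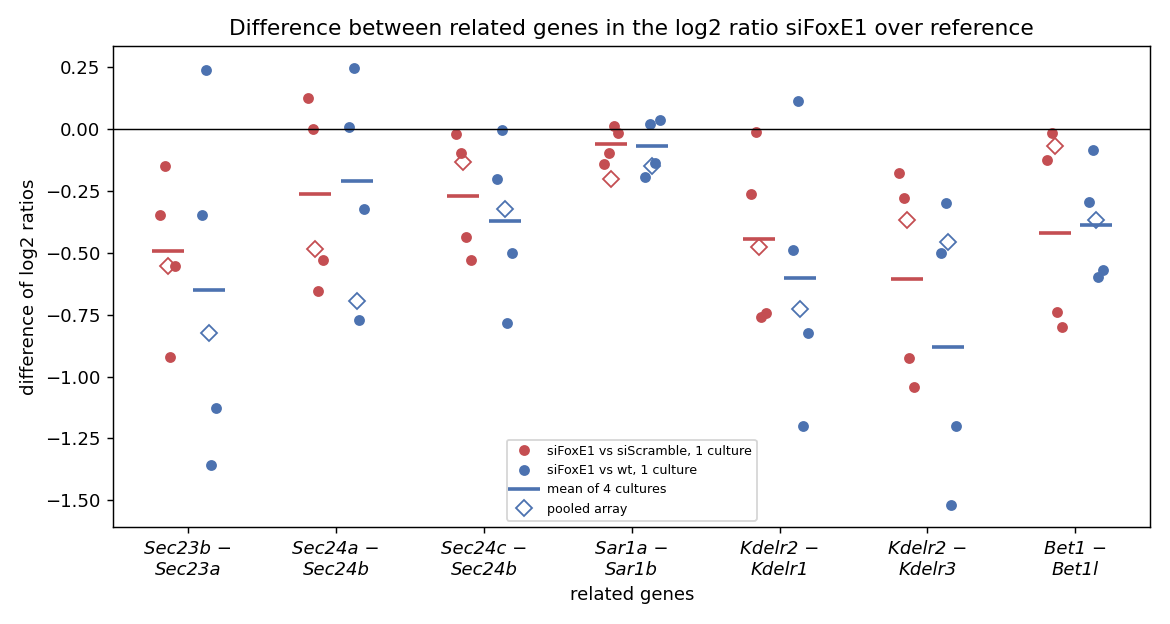
Difference of log2 ratios (siFoxE1 over reference) between related genes for 7 pairs on the y axis, with 1 point per culture, a line for the mean of 4 cultures and an open diamond for the pool. For Kdelr2 minus Kdelr3 all points lie below 0, and for Sar1a minus Sar1b the cultures lie within 0.2 of 0.

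The size of the difference varied from culture to culture. Median log2 ratios of the 41 genes against siScramble were -0.13, -0.02, -0.38 and -0.44 in replicates 1 to 4 and -0.28 on the pool. Those against wt were -0.26, -0.02, -0.74 and -0.50 in replicates 1 to 4 and -0.37 on the pool. Medians of all genes lay between -0.02 and 0.01 on the 10 arrays. Genes below 0 numbered 33, 22, 39 and 38 in replicates 1 to 4 and 35 on the pool against siScramble, and 36, 22, 39 and 38 in replicates 1 to 4 and 33 on the pool against wt. Replicates 3 and 4 held nearly all genes below 0, and replicate 2 held about as many above as below. For 18 of 41 genes the lowest individual array against siScramble was replicate 3 and for 18 it was replicate 4, beside 25.9% and 19.1% of all genes. Against wt it was replicate 3 for 33 of 41 genes, beside 33.7%. On all 10 arrays, 10 of 41 genes were below 0, beside 6.52% of all genes, and 0 were above 0.

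Other gene lists, also chosen with earlier results of these data known, were measured on the same arrays for comparison. The 17 measured genes of ER stress, among them chaperones and degradation factors of the unfolded protein response, had medians against siScramble of -0.12, -0.16, -2.04 and -1.30 in replicates 1 to 4 and -0.72 on the pool, and against wt of -0.35, -0.08, -2.71 and -1.36 in replicates 1 to 4 and -0.75 on the pool. They were lowest on the same arrays as the transport genes and 17 of 17 were below 0 in each comparison. In the fit per comparison none was called, with 8 of 17 lower against siScramble and 5 against wt at an unadjusted p under 0.05, beside the 7.5% and 10.2% of all genes. With the block 3 of 17 were lower against wt at an adjusted p under 0.05, beside 4.9% of all genes, and 0 against siScramble. The 3 furthest from 0 were Derl3, a factor of ER-associated degradation, with -1.67 ± 0.80 against siScramble and -2.07 ± 0.89 against wt, Herpud1, another such factor, with -1.22 ± 0.30 against siScramble and -1.32 ± 0.38 against wt (with the block, adjusted p = 0.0228 against wt), and Creld2, an ER protein of disulfide chemistry, with -1.28 ± 0.45 against siScramble and -1.18 ± 0.53 against wt. What part such a response has in the values of the transport genes was not tested.

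A second list held other genes of the route, such as the TRAPP, COG and exit-site factors, of which 58 of 73 were measured. Their median was -0.03 against siScramble and -0.08 against wt, with 32 and 39 of 58 below 0. In the fit per comparison none was called. At an unadjusted p under 0.05, 6 were lower and 2 higher against siScramble, beside 7.5% and 8.67% of all genes, and 11 were lower and 4 higher against wt, beside 10.2% and 10.6%. With the block 6 were lower and 1 higher against wt at an adjusted p under 0.05, beside 4.9% and 5.83% of all genes, and 0 were called against siScramble. Furthest from 0 were Yif1a, a membrane protein of ER-derived vesicles, with -0.36 ± 0.09 against siScramble and -0.54 ± 0.14 against wt (with the block, adjusted p = 0.0141 against wt), Cog3, a subunit of a Golgi tether, with -0.31 ± 0.13 against siScramble and -0.53 ± 0.15 against wt (with the block, adjusted p = 0.0241 against wt), and Scfd1, the partner of Stx5, with -0.35 ± 0.13 against siScramble and -0.43 ± 0.18 against wt. Low values were thus not shared by all genes of the route.

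**Figure D4:**
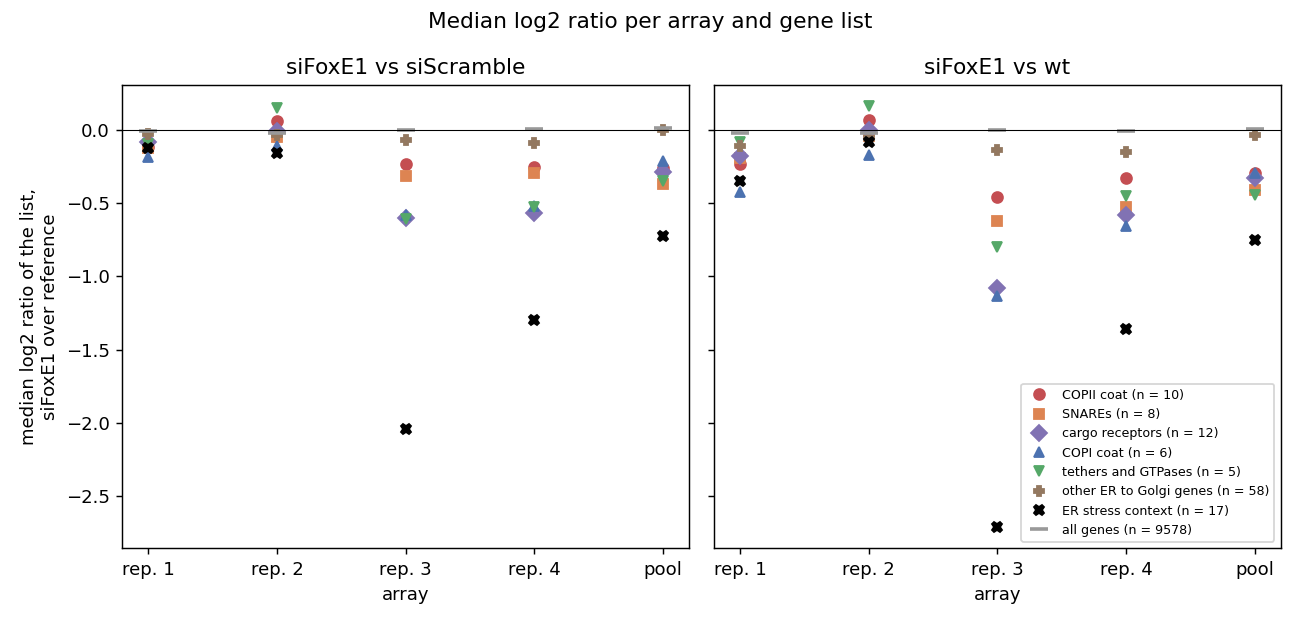
Median log2 ratio (siFoxE1 over reference, y axis) of each subgroup and of 3 further lists on each array, with siFoxE1 vs siScramble on the left and siFoxE1 vs wt on the right. Among the individual arrays, the 5 subgroups and the ER stress genes are lowest on replicates 3 and 4, and all genes stay near 0.

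Levels in the separate channels showed how far the cultures differed within 1 condition. Each gene's log2 intensity was taken as its difference from its mean over the 4 cultures of a condition. Over the 41 genes the medians of this difference were 0.28, -0.52, 0.14 and 0.07 in wt cultures 1 to 4. In siScramble cultures they were 0.28, -0.44, -0.06 and 0.14, and in siFoxE1 cultures 0.42, -0.09, -0.22 and -0.04. Culture 1 was the highest for 29 of 41 genes in wt, 27 in siScramble and 34 in siFoxE1, beside 25.1%, 28.3% and 31.3% of all genes. Culture 2 was the lowest for 32 genes in wt and 30 in siScramble, but for 12 in siFoxE1, where culture 3 was the lowest for 20. Culture 2, whose ratios were nearest to 0, was thus the one with the lowest wt and siScramble levels of most genes.

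Between the highest and the lowest culture, the median gene spanned 0.91 log2 units in wt, 0.82 in siScramble and 0.75 in siFoxE1, beside 0.40, 0.42 and 0.43 for all genes. With loess alone the spans of the median transport gene were 0.62 in wt and 0.57 in siScramble. The span of all genes with loess alone is not given here, so these 2 values have no like value beside them. The same siFoxE1 extract on 2 arrays differed by a median of 0.0506. Uso1 had log2 intensities of 12.18, 10.16, 11.76 and 11.48 in wt cultures 1 to 4, of 12.02, 10.20, 11.03 and 11.45 in siScramble and of 11.82, 10.35, 9.92 and 10.52 in siFoxE1. Its wt cultures alone spanned 2.02. Its log2 ratios against wt, taken within arrays, had an SD of 0.86 over the 4 cultures. Sec23b gave 12.81, 11.23, 12.68 and 12.60 in wt and 12.10, 11.31, 10.76 and 11.31 in siFoxE1. Kdelr3, by comparison, gave 9.54, 9.15, 9.22 and 8.99 in wt and 9.41, 9.39, 9.30 and 9.17 in siFoxE1, a span of 0.55 and 0.24. The ER stress genes spanned a median of 3.26 in wt and 3.12 in siFoxE1, and culture 2 was the lowest for 17 of 17 of them in wt.

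**Figure D5:**
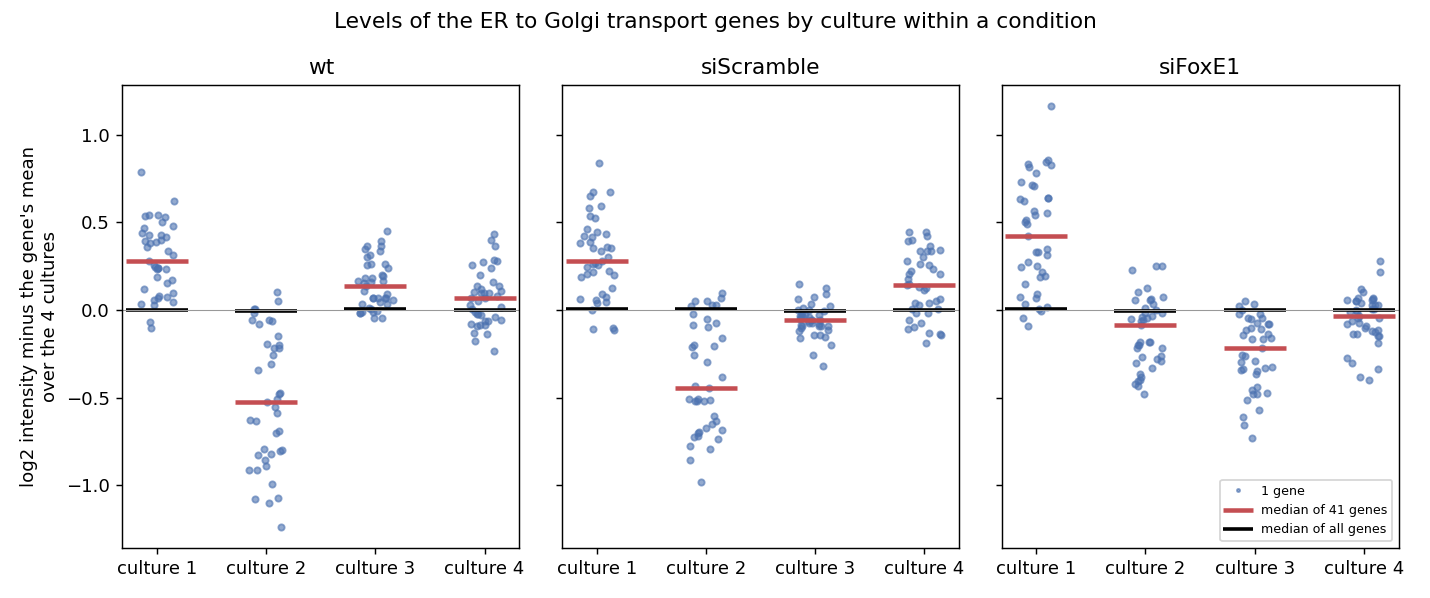
Log2 intensity of 41 genes minus each gene's mean over the 4 cultures of a condition (y axis), with 1 point per gene, red lines for their median and black lines for the median of all genes. Culture 1 is high in each condition, and culture 2 is low in wt and siScramble.

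siScramble and wt were compared through siFoxE1, as the difference between both comparisons in the fit of 10 arrays, and the values rest on the same siFoxE1 extracts. The 41 genes had a median log2 difference of -0.14, siScramble below wt, with 36 below 0, beside -0.0025 over all genes. By culture the medians were -0.16, 0.01, -0.29 and -0.06. limma called 0 of 41 with and without the block, beside 0% of all genes without it. At an unadjusted p under 0.05, 0 of 41 were lower, beside 1.42% of all genes, or 4 with the block, beside 5.88%. No transport gene was thus shown to differ between siScramble and wt.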

How the data were processed

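The authors hybridized RNA of siFoxE1 cells with siScramble or wt RNA on Agilent arrays and deposited Feature Extraction 10.7.3.1 scanner files with spot and background intensity, processed signals and a log10 ratio per spot, and a table of log2 ratios that, per their processing notes, came from limma 3.2.3. In that deposited table the ratios run siFoxE1 over reference. Genome build is not given in the sources used here.

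From the median spot and background intensities, limma 3.58.1 in R 4.3.3 was run with normexp (offset 50), loess within and quantile normalization between arrays. Control spots and outliers were left out, spots of a probe averaged, and probes kept that were well above background on 3 of 5 arrays in 1 channel. That left 18135 probes for siScramble and 18525 for wt of 30367. lmFit and eBayes were run per comparison with a dye term, which left 3 residual degrees of freedom, and p was adjusted by Benjamini-Hochberg over all probes tested. The script was tested on simulated data. Of the probes, 17998 were named by accession through RefSeq (GRCr8), and Sec23b and Manf through the study's annotation. Arrays sharing a number share the siFoxE1 extract, as the study's design drawing shows. Their deviations correlated with r = 0.616, 0.758, 0.764 and 0.406 for replicates 1 to 4. Between arrays with different numbers r ran from -0.65 to 0.505, the highest above that of replicate 4. The number was used as a block through duplicateCorrelation (correlation 0.52) in a second fit of all 10 arrays.

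Array values were given for members called in either fit, for the 3 lowest and the highest of each subgroup, and for Bet1 and Sec23b. Up to 3 genes were named of each other list. The members and lists were chosen with earlier results of these data known. The identity of related proteins was not analysed here.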

Additional observations from a re-analysis of the deposited data

Results flagged for a closer look

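Log2 ratios of the 27 named genes, and the medians of the 5 subgroups and of all 41 genes, gave 66 groups of 4 arrays over both comparisons, in which a single array far from the other 3 was sought. Chance alone would give such an array in about 1 in 20 groups. For Gosr1 against siScramble, replicate 4 lay apart at 0.0957, while the other 3 arrays lay between -0.09 and -0.08, and the probe was dim. For Sec13 against wt, replicate 2 lay apart at -0.019, while the other 3 lay between -0.43 and -0.37.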

How the results depend on the processing

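The median of the 41 genes stayed below 0 under all alternatives run, and no named gene was called in the fit per comparison, so none could lose a call. Against siScramble, 0 genes were called by limma in the fit per comparison, 8 without the dye term and 1 on the individual arrays alone. Against wt the count was 0 in the fit per comparison, 3 without the dye term, 10 in the fit of all 10 arrays and 18 with the replicate block, and the block changed no call against siScramble. For the fits without the dye term and on individual arrays alone, no share of all genes is given here. Their counts are therefore not read as results about the set. Leaving out each replicate in turn gave 0 called in both comparisons, and medians from -0.29 to -0.24 against siScramble and from -0.47 to -0.34 against wt. The counts at an unadjusted p under 0.05, whose alternatives were chosen after seeing the data, were 20 against siScramble and 23 against wt. They became 10 and 13 with processed signals, and 13 against siScramble on the first scan alone. Without 1 replicate they ranged from 17 to 26 against siScramble and from 10, without replicate 4, to 28 against wt. The cause of these differences was not tested. Of these ranges only the value of 10 has a share of all genes beside it, 5.17%, so the others are not set against all genes. Limits: 4 cultures of 1 line gave each spread, the pool repeats their RNA, and the ratios of dim probes such as Gosr1 depend on the background correction (-0.05 against siScramble, -0.38 with processed signals).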
